A study of Mus musculus with 2 samples.

Results

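Mouse chromosome 15 carries the type II keratin and Hoxc gene clusters, the proto-oncogene Myc, and many genes of adhesion, the cytoskeleton and signaling. The data are DNaseI-seq peaks of NMuMG, a line of epithelial cells that was derived from the mammary gland of a healthy mouse. The intervals described here were chosen by chromosome from the authors' peak lists: repeated rows of an interval were collapsed and intervals on chromosome 15 of mm9 were kept. This gave 977 of 17784 intervals for vehicle and 1205 of 22600 for TGFβ 2 h. Both groups came from the same line, were kept for 6 h without serum and insulin, and then received vehicle or 5 ng/ml of TGFβ1 for 2 h. Each of the 2 samples had 1 list and no replicate list, so no test between the conditions could be made. Intervals around shares are Wilson 95% intervals and intervals around ratios are exact binomial 95% intervals. They cover the counting of intervals and hold no spread between cultures or libraries.

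DNaseI cuts where DNA is not wrapped in nucleosomes, and such places are mainly active promoters and distal regulatory elements such as enhancers. TGFβ signals through receptor kinases to SMAD proteins and, in parallel, to MAP kinases, which raise the activity of AP-1. AP-1 factors are dimers of FOS, JUN and related proteins that bind the word TGACTCA, which reads TGAGTCA on the other strand. In mammary epithelial cells TGFβ starts a shift toward a mesenchymal state, in which keratins, cell junctions and the actin cytoskeleton are remodelled. An interval is called promoter where it lay within 1000 bp of any annotated transcript start, and distal otherwise. It is called shared where at least 1 bp overlapped an interval of the other list, and vehicle-only or TGFβ 2 h-only where none did. Absence from a list does not show that signal was absent.

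Promoters of defining markers were checked against the labelled cell type over all chromosomes. Of 7 epithelial markers, Krt8, Krt18 and Cdh1 had a promoter interval in both lists, and Krt7, Epcam and Cldn4 had none in either. The remaining one, Grhl2, had one in the vehicle list, at an internal transcript start. Of 4 fibroblast markers 1 had a promoter interval in each list (Col1a1), while 0 of 4 leukocyte and 0 of 3 endothelial markers had one. The lists hold no read depth, although the study states that the vehicle sample, which gave the shorter list, was sequenced more deeply. The part of depth in the differences below was not tested. The score given to each interval ran from 540 to a ceiling of 1000. On chromosome 15, 490 vehicle intervals (50.2%, 47.0 to 53.3) and 527 TGFβ 2 h intervals (43.7%, 41.0 to 46.6) were at the ceiling. Scores below the ceiling are compared only within their own list. The ceiling is also used as a common cut for both lists, and whether it stands for the same signal in each is not known.

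The following sequences are examples, most of them chosen for their AP-1 words, and 267 of 353 TGFβ 2 h-only distal intervals held no such word. Each is the middle 200 bp of an interval, on the forward strand of mm9, with AP-1 words in capitals. The first 4 were TGFβ 2 h-only intervals at the score ceiling, ranked by their number of AP-1 words, then by their deposited rows and position. These lay in introns of Trio, Tspo and Cyth4 and in an intergenic stretch whose nearest protein-coding start, that of Zfat, was 478 kb away.
Trio intron, chr15:27927390-27927589: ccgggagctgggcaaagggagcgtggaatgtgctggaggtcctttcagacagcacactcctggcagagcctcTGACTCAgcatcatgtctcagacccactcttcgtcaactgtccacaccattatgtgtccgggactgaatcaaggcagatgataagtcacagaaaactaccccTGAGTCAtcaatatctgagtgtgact
Tspo intron, chr15:83396031-83396230: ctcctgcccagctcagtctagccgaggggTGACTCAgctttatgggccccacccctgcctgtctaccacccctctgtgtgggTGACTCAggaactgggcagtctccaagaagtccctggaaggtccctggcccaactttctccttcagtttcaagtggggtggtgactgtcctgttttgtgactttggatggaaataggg
Intergenic, nearest Zfat, chr15:67612331-67612530: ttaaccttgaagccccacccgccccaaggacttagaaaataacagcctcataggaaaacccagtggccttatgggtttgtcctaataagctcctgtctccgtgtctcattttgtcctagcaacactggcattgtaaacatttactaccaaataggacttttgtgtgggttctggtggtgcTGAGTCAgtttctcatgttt
Cyth4 intron, chr15:78438020-78438219: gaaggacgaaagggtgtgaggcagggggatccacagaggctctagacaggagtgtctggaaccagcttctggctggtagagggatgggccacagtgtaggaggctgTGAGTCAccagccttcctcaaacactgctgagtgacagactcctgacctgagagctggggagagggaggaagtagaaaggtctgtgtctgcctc

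The next is a vehicle-only distal interval at the ceiling, the second by score and width and not chosen by words, and its middle stretch held no AP-1 word. Among distal intervals at the ceiling, 14 of 35 TGFβ 2 h-only and 1 of 11 vehicle-only ones held a word, so single sequences do not stand for their class.
Intergenic, nearest Gm8444, chr15:81661846-81662045: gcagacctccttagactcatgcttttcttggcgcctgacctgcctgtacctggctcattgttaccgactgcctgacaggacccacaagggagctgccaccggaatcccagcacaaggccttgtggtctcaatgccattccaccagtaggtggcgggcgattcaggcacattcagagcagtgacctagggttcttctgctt

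The last 3 show sites named below. In the Pvt1 intron, shared by both lists, 3 AP-1 words lay within 200 bp. The Krt80 promoter, also shared, held none, and a TGFβ 2 h-only interval 18.2 kb from the Krt80 start held 2. The latter was chosen after its values were seen.
Pvt1 intron, chr15:61910960-61911159: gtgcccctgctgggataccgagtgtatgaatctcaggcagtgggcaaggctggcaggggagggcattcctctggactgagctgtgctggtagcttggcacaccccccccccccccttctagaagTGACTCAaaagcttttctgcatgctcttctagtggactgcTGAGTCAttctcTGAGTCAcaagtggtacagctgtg
Krt80 promoter, chr15:101200783-101200982: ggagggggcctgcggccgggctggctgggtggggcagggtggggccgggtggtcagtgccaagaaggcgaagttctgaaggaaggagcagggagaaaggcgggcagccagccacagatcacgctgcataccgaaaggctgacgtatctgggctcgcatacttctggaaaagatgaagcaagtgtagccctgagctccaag
Intergenic, nearest Krt80, chr15:101218705-101218904: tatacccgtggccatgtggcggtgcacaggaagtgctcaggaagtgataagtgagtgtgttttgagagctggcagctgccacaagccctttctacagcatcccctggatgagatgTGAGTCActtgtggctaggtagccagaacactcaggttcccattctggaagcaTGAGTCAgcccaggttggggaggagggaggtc

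Chromosome 15 stood apart from the other chromosomes by its many distal intervals. Promoter intervals made up 42.4% of its vehicle intervals (39.3 to 45.5; 414 of 977) and 36.5% of its TGFβ 2 h intervals (33.8 to 39.3; 440 of 1205). On the other 19 chromosomes these shares were 58.5% (57.8 to 59.3) and 48.5% (47.8 to 49.2). Chromosome 15 had the lowest promoter share of 20 chromosomes in both lists. The next lowest was 47.9% in the vehicle list, on chromosome 19, and 41.4% in the TGFβ 2 h list, on chromosome 13. The place did not change when every deposited row was counted, when neighbouring intervals were joined, at the score ceiling alone, at equal list lengths, with protein-coding starts alone or with a promoter window of 2500 bp. Equal list lengths left the vehicle list unchanged, so under that setting only the TGFβ 2 h place could move. All these settings for the comparison of chromosomes were chosen after seeing the data.

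The low share did not come with few open promoters. Chromosome 15 had 51.9 promoter intervals per 100 protein-coding genes in the vehicle list and 55.2 in the TGFβ 2 h list, the fifth and the fourth highest of 20. Its distal intervals per 100 protein-coding genes were the highest of 20 in both lists, with 70.6 for vehicle and 96.0 for TGFβ 2 h. Per Mb of sequence, its 5.44 and 7.39 distal intervals came after those of chromosome 19. Among the 3 chromosomes closest to it in gene density, chromosome 14 had 18.4 and 30.2 distal intervals per 100 genes, chromosome 6 had 34.2 and 58.5, and chromosome 10 had 35.3 and 55.4, for vehicle and TGFβ 2 h. All 3 were below chromosome 15 in both lists. Why chromosome 15 held more distal intervals was not tested.

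**Figure D1:**
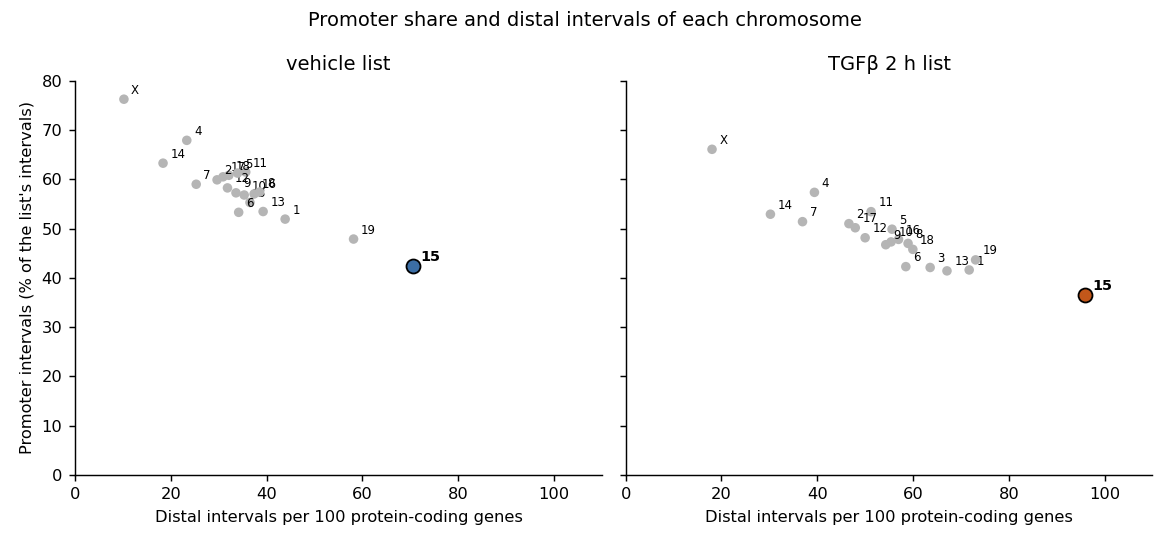
Each point is 1 of 20 chromosomes, with its distal intervals per 100 protein-coding genes on the x axis and the percent of its intervals that were promoter intervals on the y axis, for the vehicle list (left) and the TGFβ 2 h list (right). Chromosome 15, in colour, lies lowest and farthest to the right in both panels, at 42.4% and 36.5%.

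The next comparison asked how many sites were found in each condition. The TGFβ 2 h list held 1205 intervals on chromosome 15 against 977 for vehicle, a ratio of 1.23 (1.13 to 1.34). The ratio on the other 19 chromosomes was 1.27 (1.25 to 1.30). The ratio depended on the unit: it was 0.961 (0.918 to 1.01) when every deposited row was counted. An interval can have several rows, which the sources do not explain and which may be separate summits. The ratio was 0.957 (0.874 to 1.05) when the TGFβ 2 h list was cut by score to the length of the vehicle list, which sets the genome's ratio to 1. Promoter intervals were near equal in number, with a ratio of 1.06 (0.927 to 1.22), and distal intervals had a ratio of 1.36 (1.22 to 1.52; 563 and 765 intervals). The distal ratio was 1.58 (1.53 to 1.63) on the other 19 chromosomes, and chromosome 15 had the lowest but one of 20.

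Most intervals of chromosome 15 were shared. There were 788 shared vehicle intervals (80.7%, 78.1 to 83.0) and 803 shared TGFβ 2 h intervals (66.6%, 63.9 to 69.2). The vehicle-only intervals numbered 189 (19.3%, 17.0 to 21.9), beside 17.6% of all vehicle intervals in the genome. The TGFβ 2 h-only intervals numbered 402 (33.4%, 30.8 to 36.1), beside 33.7% of all TGFβ 2 h intervals. Both shares were close to the background. The ratio of these classes was 2.13 (1.78 to 2.54), and it was 0.798 at equal list lengths. There 205 TGFβ 2 h-only and 257 vehicle-only intervals remained. By construction the cut can only lower the first number and raise the second.

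Open promoters were mostly common to both lists. Of the promoter intervals, 29 were vehicle-only (7.0%, 4.92 to 9.88; genome 7.29%) and 49 were TGFβ 2 h-only (11.1%, 8.53 to 14.4; genome 10.1%). Distal intervals were more often in 1 list alone. Of the distal intervals, 160 were vehicle-only (28.4%, 24.8 to 32.3; genome 31.6%) and 353 were TGFβ 2 h-only (46.1%, 42.6 to 49.7; genome 55.3%). The TGFβ 2 h-only share of distal intervals was thus below the genome's, and it was the lowest of 20 chromosomes. The shares of chromosome 19 (252 of 529) and chromosome 11 (422 of 847) were close to it. On chromosomes 14, 6 and 10 the share was 56.6% (50.8 to 62.2), 60.3% (56.6 to 63.9) and 57.5% (53.5 to 61.5).

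The thresholds set the classes only in part. The promoter interval farthest from a start lay 963 bp away in the vehicle list and 952 bp away in the TGFβ 2 h list, and the nearest distal ones lay at 1094 bp and 1002 bp. In all, 34 vehicle and 35 TGFβ 2 h distal intervals lay within 2000 bp of a start. The smallest overlap that made an interval shared was 67 bp in the vehicle list and 57 bp in the TGFβ 2 h list. The smallest gap that left one unmatched was 147 bp and 39 bp, and 19 vehicle-only and 24 TGFβ 2 h-only intervals lay within 1000 bp of the other list.

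Intervals of the classes differed in size and place. Shared promoter intervals were the widest, with median widths of 957 bp (vehicle) and 820 bp (TGFβ 2 h), and a median GC content of 68.5% and 69% in their middle 200 bp. Shared distal intervals had medians of 658 bp and 585.5 bp. Vehicle-only distal intervals had a median width of 476.5 bp and a median GC content of 52%, and TGFβ 2 h-only ones 410 bp and 50%. In 751 pairs of intervals that overlapped each other and no others, the TGFβ 2 h interval was narrower in 68.2% (64.8 to 71.4). This share was 73.4% (68.7 to 77.7) for promoters and 63.2% (58.3 to 67.9) for distal pairs. A vehicle interval overlapped 2 or more TGFβ 2 h intervals in 22 cases, and the converse held in 8.

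TGFβ 2 h-only distal intervals lay farther from protein-coding starts than shared ones. Their median distance to a protein-coding start was 33.1 kb (quartiles 12.3 and 83.5), against 18.1 kb (8.77 and 46.9) for shared distal intervals of the same list and 25.9 kb for vehicle-only ones. On the other 19 chromosomes these medians were 27.6, 22.1 and 21.5 kb. By the midpoint, 45.6% (40.5 to 50.8) of the TGFβ 2 h-only distal intervals lay in introns, 49.3% (44.1 to 54.5) between genes and 5.10% in exons. Of the shared distal TGFβ 2 h intervals, 36.4% (31.9 to 41.2) lay in introns and 60.0% (55.1 to 64.6) between genes. The intervals of the intron shares overlapped, and those between genes did not.

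Along the chromosome, intervals followed the genes. In 104 bins of 1 Mb, the last of them incomplete, the vehicle list had a median of 6 and a maximum of 45 intervals, and the TGFβ 2 h list a median of 7 and a maximum of 53. The 10 densest bins held 35.5% (32.6 to 38.6) and 33.0% (30.4 to 35.7) of the intervals, and 8 bins were among the 10 densest in both lists. No interval fell in 17 bins for vehicle and 12 for TGFβ 2 h, with 10 bins empty in both, 3 of which hold no sequenced base. Across bins the Spearman correlation of intervals with protein-coding gene starts was 0.87 for vehicle and 0.86 for TGFβ 2 h. It was 0.91 and 0.92 for promoter intervals and 0.76 in both lists for distal ones. Bins are not independent replicates, neighbouring bins share sequence composition, and the promoter class was itself defined by gene starts.

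The distal end of the chromosome held most of the open chromatin. Bins 71 to 104 had 559 of the 797 protein-coding gene starts, 609 vehicle intervals and 715 TGFβ 2 h intervals. Bins 36 to 70 had 133 starts, 244 and 304 intervals, and bins 1 to 35 had 105 starts, 124 and 186 intervals. The share of distal TGFβ 2 h intervals that were TGFβ 2 h-only was 61.5% (53.0 to 69.5) in bins 1 to 35, 52.5% (45.9 to 59.0) in bins 36 to 70 and 38.0% (33.4 to 42.7) in bins 71 to 104. The first pair of intervals overlapped, and the last lay below both. The vehicle-only share of distal vehicle intervals was 28.6% (19.3 to 40.1), 35.8% (28.8 to 43.6) and 24.9% (20.5 to 29.8) in the same segments, with overlapping intervals.

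The longest stretch with no interval in either list spanned 5.05 Mb, chr15:45304623-50349938, and held Csmd3, which encodes a large transmembrane protein of neurons. The next of sequenced DNA spanned 2.26 Mb around Cdh9 and 1.96 Mb around Cdh12, both genes of cadherins best known in the nervous system.

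**Figure D2:**
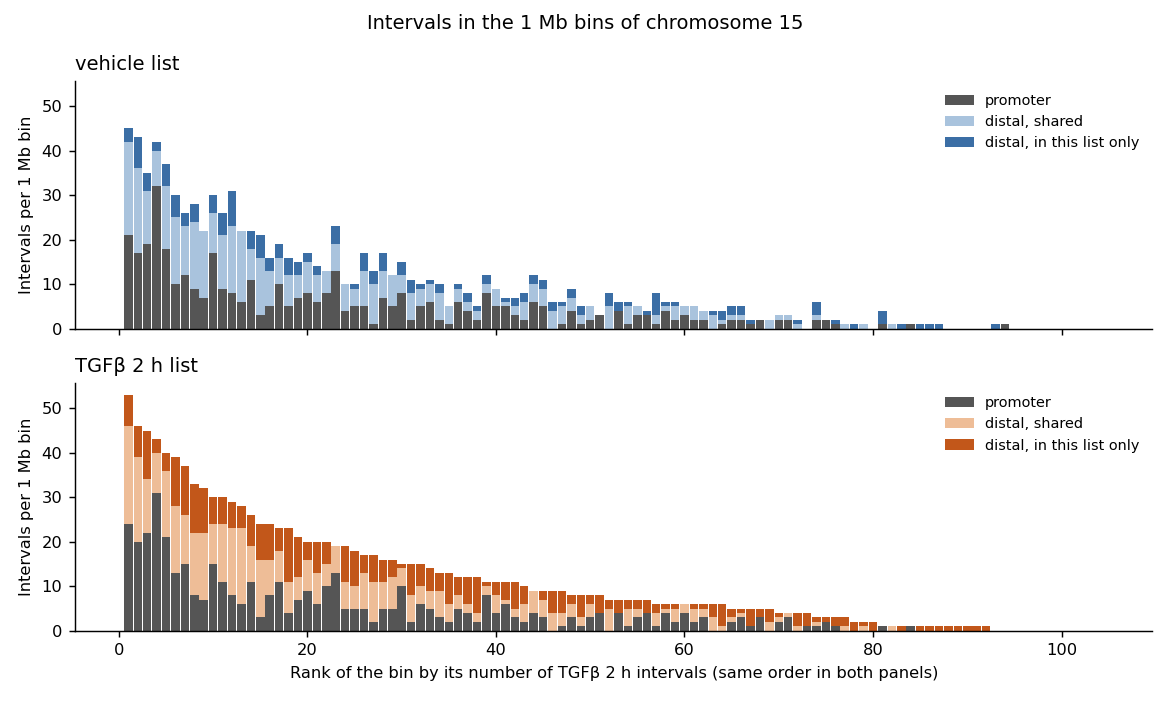
Bars give the number of intervals in each of the 104 bins of 1 Mb, split into promoter, shared distal and distal found in 1 list, for the vehicle list (top) and the TGFβ 2 h list (bottom). Bins stand in the order of their TGFβ 2 h counts in both panels, so the densest (53 TGFβ 2 h and 45 vehicle intervals) is at the left. Distal intervals in 1 list are more in total in the lower panel (353 against 160), though not in every bin.

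The same 5 bins were the densest in both lists. The first, chr15:79000001-80000000, held 45 vehicle and 53 TGFβ 2 h intervals and 21 genes with a promoter interval in each list. Among them were Maff, a small MAF factor that can pair with AP-1 family proteins, the Polycomb genes Cbx6 and Cbx7, the growth factor gene Pdgfb, and Tab1, a partner of the TGFβ-activated kinase TAK1. The bin before it held 43 and 46 intervals, with the galectin gene Lgals1, the actin organizer Triobp, Eif3l and Polr2f. The bin chr15:81000001-82000000 held 35 and 45, with Mkl1, a coactivator of serum response factor, the acetyltransferase gene Ep300, Tef and Srebf2.

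The other 2 were rich in genes and held near equal numbers in both lists. The bin chr15:76000001-77000000 held 42 and 43 intervals, of which 32 and 31 were promoter intervals, the most of all bins. It carried Plec, which links intermediate filaments to the membrane, the heat shock factor gene Hsf1 and Rpl8. The bin chr15:98000001-99000000 held 37 and 40, with the α-tubulin genes Tuba1a, Tuba1b and Tuba1c, the histone methyltransferase gene Mll2 and Wnt1.

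More bins held more TGFβ 2 h intervals than the reverse: 68 bins held more TGFβ 2 h intervals, 13 more vehicle intervals and 13 equal numbers above 0. With the TGFβ 2 h list cut to equal length these were 29 and 44 bins, a cut that removes TGFβ 2 h intervals by construction. The bin with most TGFβ 2 h-only intervals, 15 against 6 vehicle-only, was chr15:101000001-102000000, which held Acvr1b, Nr4a1 and the keratins Krt80, Krt8 and Krt18. It was followed by chr15:99000001-100000000 with 14 against 4 (Racgap1, Smarcd1 and Lima1), chr15:81000001-82000000 with 13 against 4, and chr15:66000001-67000000 with 12 against 5 (Wisp1 and Ndrg1). The bin with Pabpc1, Ywhaz and Polr2k had 11 against 4, and the bin after the densest one also had 11, against 3. These are dense bins: the TGFβ 2 h-only share of their TGFβ 2 h intervals ran from 28.9% (17.7 to 43.4) in the bin of Mkl1 to 52.2% (33.0 to 70.8) in that of Wisp1, and all 6 intervals held the 33.4% of the whole chromosome.

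Vehicle intervals were ahead by 3 or more in 4 bins. The bin of Scrib, a cell polarity gene, and Puf60 held 23 vehicle and 19 TGFβ 2 h intervals, with 4 vehicle-only and 0 TGFβ 2 h-only distal intervals. The incomplete last bin, with Itga5 and Nfe2, held 12 and 9. A bin whose only open promoter was that of Pgcp held 4 and 1, since 3 vehicle-only intervals lay together between chr15:33951588 and 33982675. The bin with Rims2 and Lrp12 held 6 and 3.

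**Figure D3:**
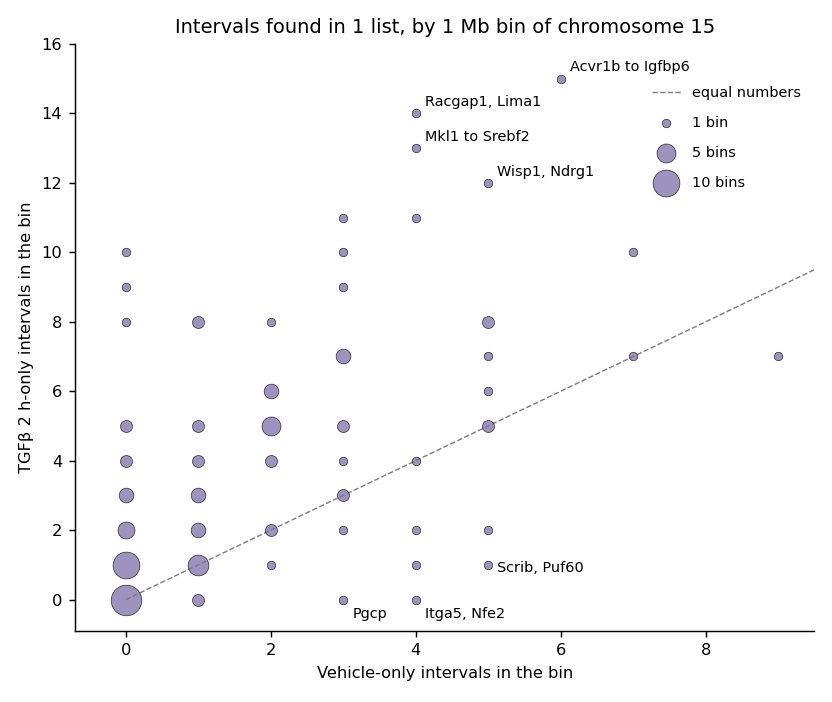
Each point stands for the 1 Mb bins with the same number of vehicle-only intervals (x axis) and TGFβ 2 h-only intervals (y axis), and its area gives how many bins share these numbers. Points above the dashed line of equal numbers hold more TGFβ 2 h-only intervals, up to 15 against 6 in the bin from Acvr1b to Igfbp6, and the named bins below it (Pgcp; Itga5 and Nfe2; Scrib and Puf60) hold more vehicle-only intervals.

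AP-1 words were common in distal intervals except in those found with vehicle alone. Among TGFβ 2 h-only distal intervals, 86 of 353 held the word in their middle 200 bp (24.4%, 20.2 to 29.1). Among vehicle-only ones it was 14 of 160 (8.75%, 5.28 to 14.2). Shared distal intervals held it in 88 of 412 cases in the TGFβ 2 h list (21.4%, 17.7 to 25.6) and in 81 of 403 in the vehicle list (20.1%, 16.5 to 24.3). The intervals of the vehicle-only share and of the other 3 did not overlap, whereas those of TGFβ 2 h-only and shared did. With only the ceiling intervals of both lists the vehicle-only share was 12.2% (5.73 to 24.2), and its interval overlapped those of shared vehicle (17.1%, 11.3 to 24.9) and shared TGFβ 2 h (21.0%, 14.7 to 29.2) intervals, while TGFβ 2 h-only was at 35.9% (26.8 to 46.1). Over all chromosomes, 15.1% of TGFβ 2 h and 8.97% of vehicle intervals held the word.

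The shares on chromosome 15 and on the other chromosomes had overlapping intervals. On the other 19 chromosomes the share was 27.3% (26.2 to 28.5) for TGFβ 2 h-only, 7.61% (6.58 to 8.79) for vehicle-only and 23.7% (22.5 to 24.9) for shared TGFβ 2 h distal intervals. At the score ceiling 14 of 35 TGFβ 2 h-only distal intervals of chromosome 15 held the word (40.0%, 25.6 to 56.4), against 72 of 318 below it (22.6%, 18.4 to 27.6), and 1 of 11 vehicle-only ones did. Within TGFβ 2 h-only distal intervals, introns (24.8%, 18.8 to 32.1) and intergenic sites (25.3%, 19.4 to 32.2) had overlapping intervals in the share with the word, and so had the 3 segments of the chromosome, with 26.3%, 21.7% and 25.3%. The vehicle-only share was 15.0% (5.24 to 36), 12.3% (6.08 to 23.2) and 4.82% (1.89 to 11.7) in these segments, and within each segment its interval overlapped that of shared vehicle intervals, with 24.0% (14.3 to 37.4), 29.4% (21.4 to 38.9) and 15.5% (11.6 to 20.5). It also overlapped that of TGFβ 2 h-only intervals in the first and middle segments, and did not in bins 71 to 104. In introns the vehicle-only share (7.94%, 3.44 to 17.3) and the shared vehicle share (26.5%, 20.1 to 34.2) did not overlap, while between genes they did (9.20%, 4.73 to 17.1, and 16.2%, 12.1 to 21.4).

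Promoters rarely held the word, with 11 of 391 shared TGFβ 2 h promoter intervals (2.81%, 1.58 to 4.97) and 0 of 29 vehicle-only ones, which allows up to 11.7% (Wilson). Of the TGFβ 2 h-only promoter intervals 6 of 49 did (12.2%, 5.73 to 24.2), among them those at Pvalb, Tspo and Tmbim6. The GC-box word GGGCGGG, bound by SP and KLF factors, was in 37.9% (33.2 to 42.8) of shared TGFβ 2 h promoter intervals and in 38.2% (33.5 to 43.1) of shared vehicle ones. It was in 12.2% (5.73 to 24.2) of TGFβ 2 h-only and 20.7% (9.85 to 38.4) of vehicle-only promoter intervals. Of the distal TGFβ 2 h intervals, 7.77% (5.56 to 10.8) of shared and 1.98% (0.964 to 4.04) of TGFβ 2 h-only ones held it, with intervals that did not overlap. Of the distal vehicle intervals, 8.68% (6.31 to 11.8) of shared and 3.13% (1.34 to 7.11) of vehicle-only ones did, with intervals that overlapped. This word was in 19.7% of all TGFβ 2 h and 23.3% of all vehicle intervals in the genome.

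For the other words the intervals of the distal classes overlapped. The TEAD word GGAATG, in 11.1% of all TGFβ 2 h and 9.95% of all vehicle intervals, was in 13.3% (10.2 to 17.3) of TGFβ 2 h-only and 11.3% (7.24 to 17.1) of vehicle-only distal intervals, and in 16.3% (13.0 to 20.1) of shared TGFβ 2 h and 14.1% (11.1 to 17.9) of shared vehicle ones. The RUNX word TGTGGTT, in 4.94% and 3.66% of all intervals, was in 7.08% (4.84 to 10.2) and 4.38% (2.14 to 8.75) of the former pair of classes and in 7.77% (5.56 to 10.8) and 7.2% (5.06 to 10.1) of the latter. The palindrome GTCTAGAC, which SMAD proteins can bind, was in 5 of 353 TGFβ 2 h-only (1.42%, 0.606 to 3.27), 2 of 412 shared TGFβ 2 h (0.485%, 0.133 to 1.75), 4 of 403 shared vehicle (0.993%, 0.387 to 2.52) and 0 of 160 vehicle-only distal intervals (up to 2.34%), with overlapping intervals, and in 0.336% and 0.169% of all intervals. Words were searched on both strands, and none of those searched contains another. A match is only a match of letters and shows no binding.

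**Figure D4:**
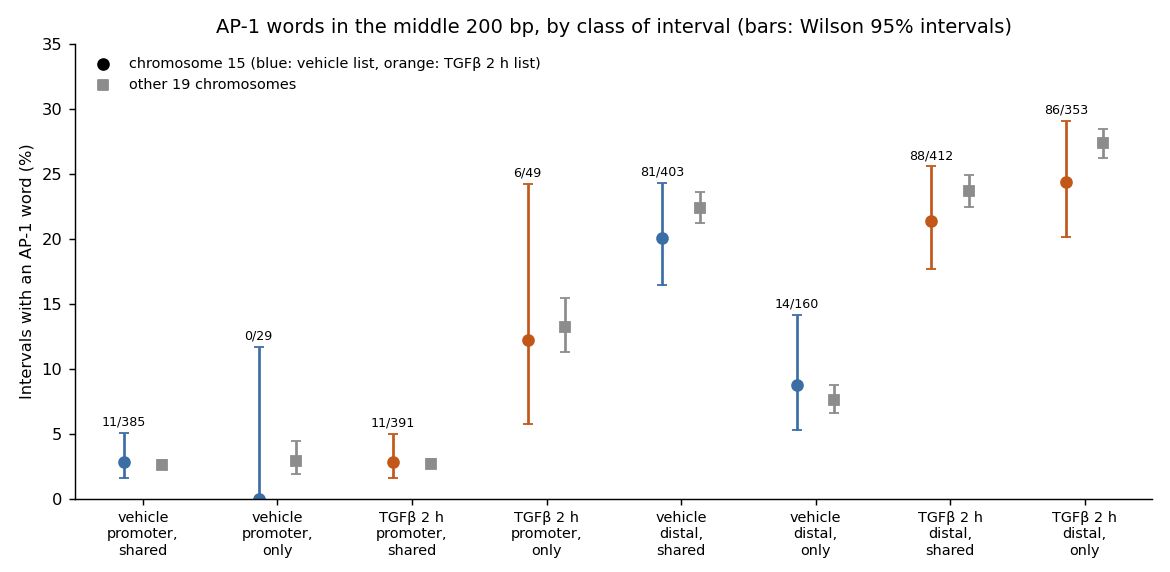
Points give the percent of intervals with TGACTCA or TGAGTCA in their middle 200 bp, by list, position and class, for chromosome 15 (coloured, with counts) and the other 19 chromosomes (grey), and bars are Wilson 95% intervals. On chromosome 15 the distal vehicle-only class (14 of 160) lies below the other distal classes, and shared promoter classes lie near 3% or lower.

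Genes of chromosome 15 were then described by role, with distal intervals counted in the gene or within 50 kb of it. Neighbouring genes can count the same interval, and long genes cover more sequence. The gene lists were not matched to all genes by gene length. Over all 797 protein-coding genes, 397 had a promoter interval in the vehicle list (49.8%) and 405 in the TGFβ 2 h list (50.8%), 379 of them in both. A TGFβ 2 h-only distal interval lay near 338 genes (42.4%) and a vehicle-only one near 243 (30.5%).

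Among the type II keratins, the intermediate filament proteins of epithelia, 3 of 23 had an open promoter, the same in both lists: Krt8, Krt18 and Krt80. Krt8 and Krt18 encode the filament pair of simple epithelia (Krt18 is a type I keratin that lies beside Krt8), and their start-site intervals were at the score ceiling in both lists. Beside them, Krt8 had a vehicle-only promoter interval inside the gene (score 549) and a TGFβ 2 h-only one upstream (score 882). TGFβ 2 h-only distal intervals lay near 9 keratins (39.1%) and vehicle-only ones near 8 (34.8%).

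Krt80, a keratin of stratifying epithelia, had the most TGFβ 2 h-only distal intervals of all listed genes: 9 of its 10 in the TGFβ 2 h list, while the vehicle list held 2 distal intervals there and 1 of these was shared. They lay on both sides of the gene between chr15:101146137 and 101219151, with scores from 569 to 1000, and 4 of the 9 held an AP-1 word. Of these, chr15:101159893-101160288 and chr15:101212123-101212585 were at the ceiling. The last 3 of them were also the 3 intervals counted for Krt7, and 2 were counted for Krt83, neither of which had an open promoter. The promoter of Krt80 itself was at the ceiling in both lists.

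The Hoxc cluster, whose 9 genes specify position along the body axis, had no promoter interval in either list. A shared distal interval at chr15:102817942-102818339 in the vehicle list, 2.91 kb from the Hoxc8 start, was the only distal interval within 50 kb of 8 of the genes, and Hoxc13 had none.

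Of 25 transcription factor and chromatin genes, 17 had a promoter interval with vehicle and 18 with TGFβ 2 h. Nr4a1, an immediate-early nuclear receptor, had none with vehicle and 2 with TGFβ 2 h, chr15:101096694-101096833 and chr15:101096955-101097417, both with a score of 768. Pou6f1 had a TGFβ 2 h-only promoter interval as well (score 550). For Grhl2, a factor of epithelial identity, the vehicle-only interval chr15:37247453-37248366 (score 685) lay in an intron at an internal transcript start, 17.6 kb from the nearest start of a protein-coding transcript. Neither list had an interval at the main start of Grhl2.

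Myc, a regulator of growth, had a shared promoter that was drawn differently in each list. With vehicle it was the single interval chr15:61816434-61817437, of 1004 bp. With TGFβ 2 h it was 2 intervals, chr15:61816707-61816847 and chr15:61816960-61817393. The neighbouring Pvt1, a long non-coding RNA gene, had a shared promoter interval. Its introns held 9 vehicle intervals, 2 of them vehicle-only, and 8 TGFβ 2 h intervals, 1 of them TGFβ 2 h-only. One of the shared ones, chr15:61910603-61911515 in the TGFβ 2 h list, holds the 3 AP-1 words shown above.

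TGFβ 2 h-only distal intervals lay near 15 of these 25 genes (60.0%) and vehicle-only ones near 13 (52.0%). Zfpm2, a GATA cofactor, had 3 and Atf1, a CREB family factor, had 2, with no distal interval of the vehicle list at either. Srebf2, the main activator of cholesterol synthesis genes, had 3, and its vehicle distal interval was vehicle-only. Tef, a PAR bZIP factor, had 2 and an equal number that were vehicle-only. Trps1 and Vdr, a GATA-type repressor and the vitamin D receptor, had vehicle-only and no TGFβ 2 h-only distal intervals, 1 and 2 respectively.

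Of 34 genes of adhesion, the cytoskeleton and matrix, 22 had an open promoter with vehicle and 23 with TGFβ 2 h, the added one being Ctnnd2 (δ-catenin, score 546). TGFβ 2 h-only distal intervals lay near 20 of them (58.8%) and vehicle-only ones near 10 (29.4%), and 17 had more distal intervals in the TGFβ 2 h list against 4 with more in the vehicle list. Over all 797 genes these numbers were 270 and 128. Some listed genes are long, such as Samd12 (chr15:53293176-53734092) and Trio (chr15:27660407-27955603), and the part of gene length was not tested. Myh9, the heavy chain of non-muscle myosin IIA, went from 5 distal intervals with vehicle to 11 with TGFβ 2 h, 6 of them TGFβ 2 h-only and 2 of these at the ceiling. Samd12, which the list holds although its role in adhesion or the cytoskeleton is not established, went from 1 to 7, with 6 TGFβ 2 h-only intervals that all lay in its introns, at scores from 540 to 924.

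Trio, an exchange factor that acts on the actin cytoskeleton, went from 3 to 8, and its 5 TGFβ 2 h-only intervals were all intronic. Of these, chr15:27927054-27927924 was at the ceiling and is the first sequence shown above. Another pair, chr15:27866688-27867112 and chr15:27867216-27867309, had the same score of 840 and lay next to each other. Asap1, an ARF GTPase-activating protein of focal adhesions, went from 2 to 7 with 5 TGFβ 2 h-only intervals, none of which held an AP-1 word. Scrib went the other way, from 3 with vehicle, 2 of them vehicle-only, to 1.

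Of 29 genes of ligands, receptors and their partners, 9 had an open promoter with vehicle and 13 with TGFβ 2 h. The 4 added were the WNT ligand genes Wnt1 (score 873) and Wnt7b (721), the WNT signal amplifier Rspo2 (562), and Dab2 (868), an endocytic adaptor of TGFβ receptors. At Dab2 the interval chr15:6336498-6336931 lay inside the gene at an annotated start, and 4 TGFβ 2 h-only distal intervals with no vehicle counterpart lay in or near the gene. TGFβ 2 h-only distal intervals lay near 19 of the 29 genes (65.5%) and vehicle-only ones near 10 (34.5%).

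Wisp1, a secreted matricellular protein, went from 2 to 5 distal intervals, 4 of them TGFβ 2 h-only, of which 3 lay upstream between chr15:66698627 and 66715712. Pdgfb, which encodes a platelet-derived growth factor chain, had 9 and 11. Ghr, the growth hormone receptor, had 0 and 2. At Wnt7b the number of distal intervals was 7 with vehicle and 4 with TGFβ 2 h, and 3 of the former were vehicle-only. The activin and TGFβ family receptor genes Acvr1b and Acvrl1 had 7 and 6, and 3 and 2.

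Of 18 genes listed for translation and RNA handling, a list that also holds a few other housekeeping genes such as Cct5 and Ywhaz, 15 had an open promoter, the same number in both lists, and 15 had one in both. Ddx17, Hnrnpa1 and Rpl3 had none. TGFβ 2 h-only distal intervals lay near 9 (50.0%) and vehicle-only ones near 5 (27.8%). Cct5, a chaperonin subunit, went from 0 to 4, Pabpc1, the poly(A)-binding protein, from 1 to 4, Rpl30 from 1 to 3, and Ywhaz, a 14-3-3 protein, from 3 to 5.

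**Figure D5:**
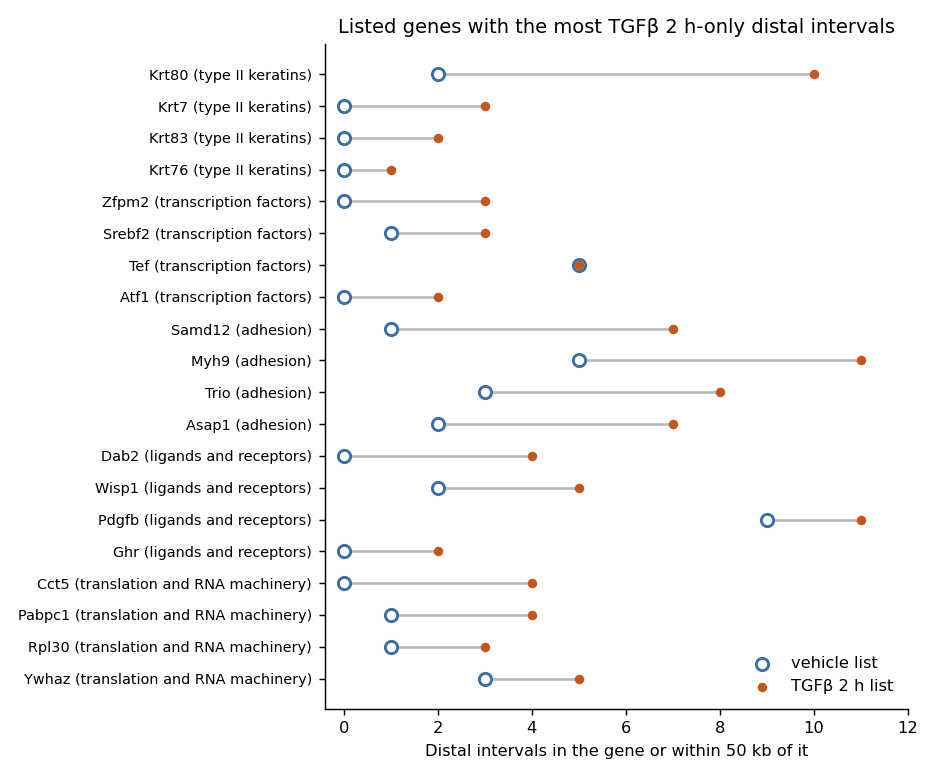
For the listed genes with the most TGFβ 2 h-only distal intervals, up to 4 for each list, points give the number of distal intervals in the gene or within 50 kb of it in the vehicle list (open blue) and the TGFβ 2 h list (orange). Krt80 (2 and 10), Myh9 (5 and 11) and Samd12 (1 and 7) show the widest gaps, and Tef has 5 in both.

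Some TGFβ 2 h-only distal intervals stood in rows. Runs of at least 3 in order along the chromosome, with no vehicle, shared or promoter interval between them, numbered 25 and held 84 intervals. The longest, 5 intervals over 106 kb at chr15:53511526-53617210, lay in Samd12, and 1 of them held an AP-1 word. Runs of 4 lay near Myo10, in and beside Zfpm2, near Trib1, around Kcnq3 and Lrrc6, near Fbln1 and Atxn10, around Nell2 and Tmem117, and beside Krt80. A run of 3 in Dab2 and C9 spanned 81.5 kb, and all 3 held an AP-1 word. These runs were defined after the data were seen and were not compared with runs by chance.

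Genes open at the promoter in 1 list alone numbered 26 of 405 for TGFβ 2 h and 18 of 397 for vehicle. Of the promoter intervals of the genome, 10.1% for TGFβ 2 h and 7.29% for vehicle were in 1 list alone. Several of the 26 scored near the lowest score of 540, such as Kcnv1 (545), Fam83f (556) and Ly6k (557). An interval can count for neighbouring genes, as at Smgc and Muc19 (590 for both). For Gpt and Apol7a, among the 18, the vehicle interval overlapped a TGFβ 2 h interval that did not reach the gene's promoter window, which leaves 16. Beside those named, the TGFβ 2 h set included Igfbp6, an inhibitor of insulin-like growth factor II (score 828), Osr2, a zinc finger factor (676), Cthrc1, a secreted protein of matrix remodelling (620), and Prickle1 of planar cell polarity (734). These genes were chosen after their values were seen. The vehicle set included Mal2 of apical transport (736), Gpd1 of metabolism (577) and Eef1d (785).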

How the data were processed

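DNaseI-seq was done on NMuMG cells given vehicle or TGFβ for 2 h. The authors aligned reads to mm9 and called peaks with the pipeline used for their ATAC-seq data, with DNaseI-seq options that are not given in the sources used here. MACS2 2.1.2 and an irreproducible discovery rate of 0.05 are stated for the ATAC-seq. The deposited lists give each peak a position and a score without read counts. The study's reporting summary lists more filtered reads for the vehicle sample than for the TGFβ 2 h sample, and those totals were not used here. The scores, whole numbers with a ceiling of 1000, were taken as the authors gave them.

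Repeated rows of an interval were collapsed (3767 to 977 on chromosome 15 for vehicle, 3621 to 1205 for TGFβ 2 h). Starts were converted to 1-based coordinates and compared with GENCODE M1 on NCBIM37, the same build as mm9. The study itself took promoters from another annotation. Bins of 1 Mb were filled by interval midpoint. Words were searched in the 200 bp around each midpoint. Python 3.11.15, SciPy 1.17.1, NumPy 2.4.6 and matplotlib 3.10.9 were used, and the counting steps were tested on simulated data. Wilson and exact binomial 95% intervals cover counting error only. No condition had replicate lists, so no p-value was computed.

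The intervals, gene lists and words were chosen with earlier results of these data known. Named were the 5 densest bins of each list, the 5 bins with most TGFβ 2 h-only intervals, bins with at least 3 more vehicle intervals, and up to 4 genes per list with most TGFβ 2 h-only distal intervals. Other named genes were chosen after their values were seen. Of 140 listed symbols 138 matched the annotation, and the longest model was taken for a repeated symbol. Alternatives changed the unit counted, the score threshold, the list length, the overlap, the promoter window, the starts, the bins, the motif window and the gene flank. The first vehicle-only sequence that the rule for printed sequences selected is not reported here.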

Additional observations from a re-analysis of the deposited data

How the results depend on the processing

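Of 120 alternative values for 26 results, 60 moved little, 57 moved and 3 reversed. The ratio of TGFβ 2 h to vehicle intervals reversed to 0.961 (0.918 to 1.01) when every deposited row was counted and to 0.957 (0.874 to 1.05) at equal list lengths, which set the genome's ratio to 1 by construction, and was 1.08 at the score ceiling. The ratio of intervals found in 1 list alone reversed to 0.798 at equal list lengths, and was 1.69 by rows and 1.42 at the ceiling. Counted by rows, there were 3767 vehicle and 3621 TGFβ 2 h entries, 499 and 845 in 1 list alone, promoter shares of 51.0% and 45.3%, fullest bins of 188 and 172, and 45 bins with more TGFβ 2 h against 43 with more vehicle. At the ceiling there were 490 and 527 intervals, 79 and 112 in 1 list alone, promoter shares of 66.1% and 60.0% (38.0% and 17.9% of those in 1 list alone), fullest bins of 26 and 31, 29 and 31 empty bins, 40.2% in the 10 densest bins of either list, 31 bins with more TGFβ 2 h against 21, and an AP-1 share of 35.9% in TGFβ 2 h-only distal intervals, where the intervals of vehicle-only and shared distal shares overlapped. At equal list lengths the TGFβ 2 h list had 205 intervals of its own, a promoter share of 43.3%, 26 empty bins, 36.5% in its 10 densest bins, 29 bins with more TGFβ 2 h against 44, and an AP-1 share of 32.4% in its own distal intervals. A promoter window of 2500 bp gave promoter shares of 46.8% and 40.8%, and 23.3% and 17.7% of those in 1 list alone. Bins of 2 Mb held at most 88 and 99 intervals, 5 were empty in each list, and 41 against 6 held more TGFβ 2 h. AP-1 shares of distal vehicle-only, shared vehicle, TGFβ 2 h-only and shared TGFβ 2 h intervals were 17.5%, 32.0%, 36.3% and 31.8% in 400 bp and 19.4%, 39.7%, 38.0% and 38.8% in the whole interval. With a flank of 10 kb, 15 listed genes had a vehicle-only and 40 a TGFβ 2 h-only distal interval, against 46 and 72 with 50 kb. Except where an alternative fixes it by construction, the cause of a move was not tested. No paired analysis was possible because there were no replicate lists to pair. The vehicle sample was sequenced more deeply and no setting corrected for this, since the lists hold no reads. With 1 list per condition, condition and library cannot be told apart, and how many libraries entered a list is not stated.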
